A study of Mus musculus with 5 samples.

Results

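T, NK and B lymphocyte genes are 43 named genes of the receptors, signalling proteins, transcription factors and effector proteins of these cells. They were taken by symbol from the deposited table of 23284 genes, low values included, and all 43 were found. The table holds RNA sequencing of primary melanomas grown in the flank skin of C57BL/6J mice, excised at 250 to 350 mm³ and frozen. The B16F1-CXCL5 group (2 libraries) came from B16F1 cells, a mouse melanoma line, made to overexpress the neutrophil chemokine CXCL5, and the B16F1 group (3 libraries) came from the unmodified line. Neither group received a treatment. Not given in the sources used here were the age and sex of the mice, the vector behind CXCL5, whether the B16F1-CXCL5 cells were a clone and whether each library came from its own mouse, so p-values measure only the spread between these libraries.

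T cells recognise peptides through a receptor whose signal passes through the CD3 chains to the kinases LCK and ZAP70 and the adaptor LAT. CD8 T cells and NK cells kill target cells by releasing perforin and granzymes, and B cells signal through the CD79 chains of their antigen receptor. B16 melanomas are known as tumors with few lymphocytes. Whole tumors were sequenced, so fewer cells of a type and less RNA per cell cannot be told apart.

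The values are FPKM, fragments scaled to transcript length and to library size, so levels can be compared between genes. The implied depth was 26900000 to 28700000 fragments per library, read from the steps of the lowest values, and 17111 to 17513 genes were above 0. Cxcl5 stood at 83.7 and 85.4 FPKM in B16F1-CXCL5 libraries 1 and 2, against 1.86, 3.62 and 1.01 FPKM in B16F1 libraries 1, 2 and 3 (limma adjusted p = 0.0163). That call was lost without B16F1-CXCL5 library 1 (adjusted p = 0.275), B16F1-CXCL5 library 2 (adjusted p = 0.284) or B16F1 library 1 (adjusted p = 0.0766), with the direction kept. All 7 melanocyte lineage markers were above 124 FPKM in each library.

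Lymphocyte genes were near the lower end of the measurement in every tumor, and none of the 43 differed between the groups past the threshold. Of the 43, 41 had a mean under 1 FPKM, 37 stayed under 1 FPKM in all 5 libraries, and 38 were above 0 in all 5. The median member had 0.288 and 0.1901 FPKM in B16F1-CXCL5 libraries, against 0.192, 0.156 and 0.182 FPKM in B16F1 libraries, while the median of all genes in the table lay between 1.31 and 1.58 FPKM. The 40 members that did not reach the expression filter (1 FPKM in at least 2 libraries) rested together on an estimated 761 and 494 fragments in the B16F1-CXCL5 libraries, against 479, 468 and 624 in the B16F1 libraries. These fragment numbers assume a fragment length of 200 nt and the longest transcript with a RefSeq match, and they carry counting error.

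**Figure D1:**
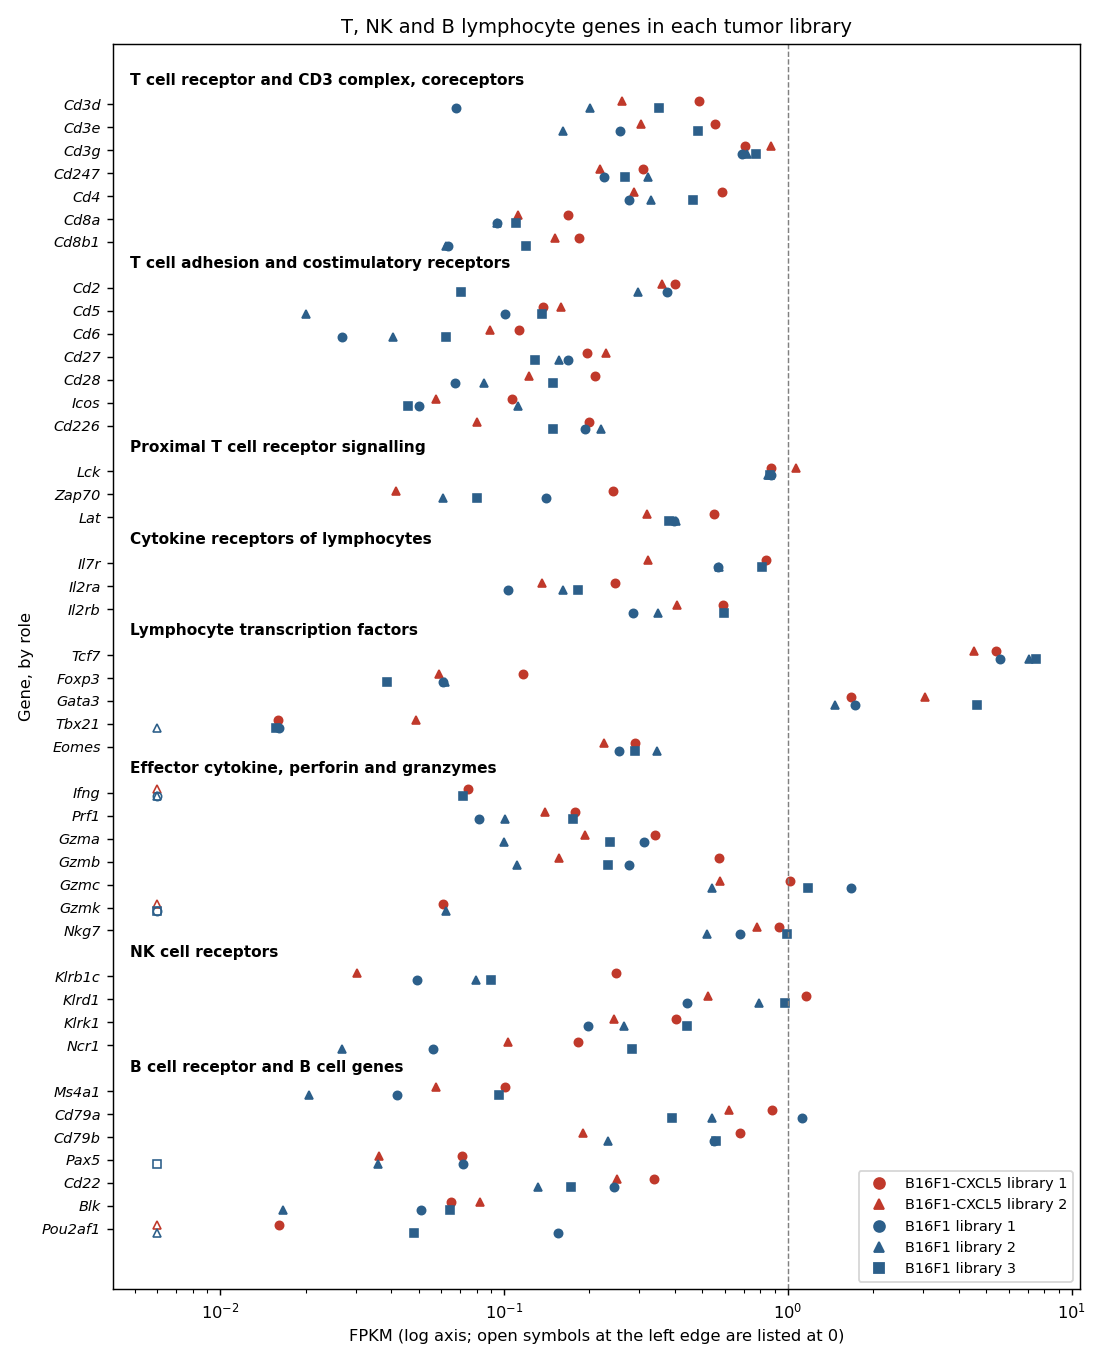
FPKM of each lymphocyte gene (log axis) in the 2 B16F1-CXCL5 libraries (red) and the 3 B16F1 libraries (blue), by role, with the dashed line at 1 FPKM and open symbols for values listed at 0. Only 16 of the 215 values reach 1 FPKM, most of them from Tcf7 and Gata3, and the colours overlap for 35 of the 43 genes.

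Differences were tested with limma on log2(FPKM + 1), and a log2 fold change is the B16F1-CXCL5 mean minus the B16F1 mean on that scale, which understates the change of low genes. Only Tcf7, Gata3 and Gzmc passed the filter. Of these 3, 0 passed a Benjamini-Hochberg adjusted p of 0.05 in limma over 12533 genes, where 0.136% of all genes were called (0.128% higher and 0.00798% lower). An unadjusted p under 0.05 was found for 1 of the 3 and for 8.97% of all genes. Without the filter, 0 of the 43 passed over 18751 genes, where 0.128% were called (0.123% higher and 0.00533% lower). Of the 43, 2 (Cd8b1 and Cd6) had an unadjusted p under 0.05, a share below the 8.36% of all genes. The lowest adjusted p of a member was 0.518. The count was 0 in each alternative setting and without each library, but only the fit without the filter tested all 43. The other settings tested the 3 members past the filter, or 1 with a mean of at least 3 FPKM. They could not call the remaining members.

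Most members had a small positive difference. The log2 fold change was above 0 for 34 of 43 members, against 49.0% of all genes, with a median of 0.05 against -0.00187 for all genes. Both B16F1-CXCL5 libraries lay above all 3 B16F1 libraries for 7 members, 16.3% of them, beside 10.8% of all genes, and below them for 1 member beside 12.3% of all genes. The count of 7 was 25 without B16F1-CXCL5 library 2, where 23.3% of all genes had that order, 15 without B16F1 library 3 (18.5% of all genes) and 12 without B16F1 library 1 (18.7% of all genes). The count of 1 was 9 without B16F1-CXCL5 library 1 (25.7% of all genes), 2 without B16F1 library 1 (18.4%) and 3 without B16F1 library 2 (16.9%). Without B16F1-CXCL5 library 1 the median log2 fold change was -0.02, so the direction of the median rests on that library.

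**Figure D2:**
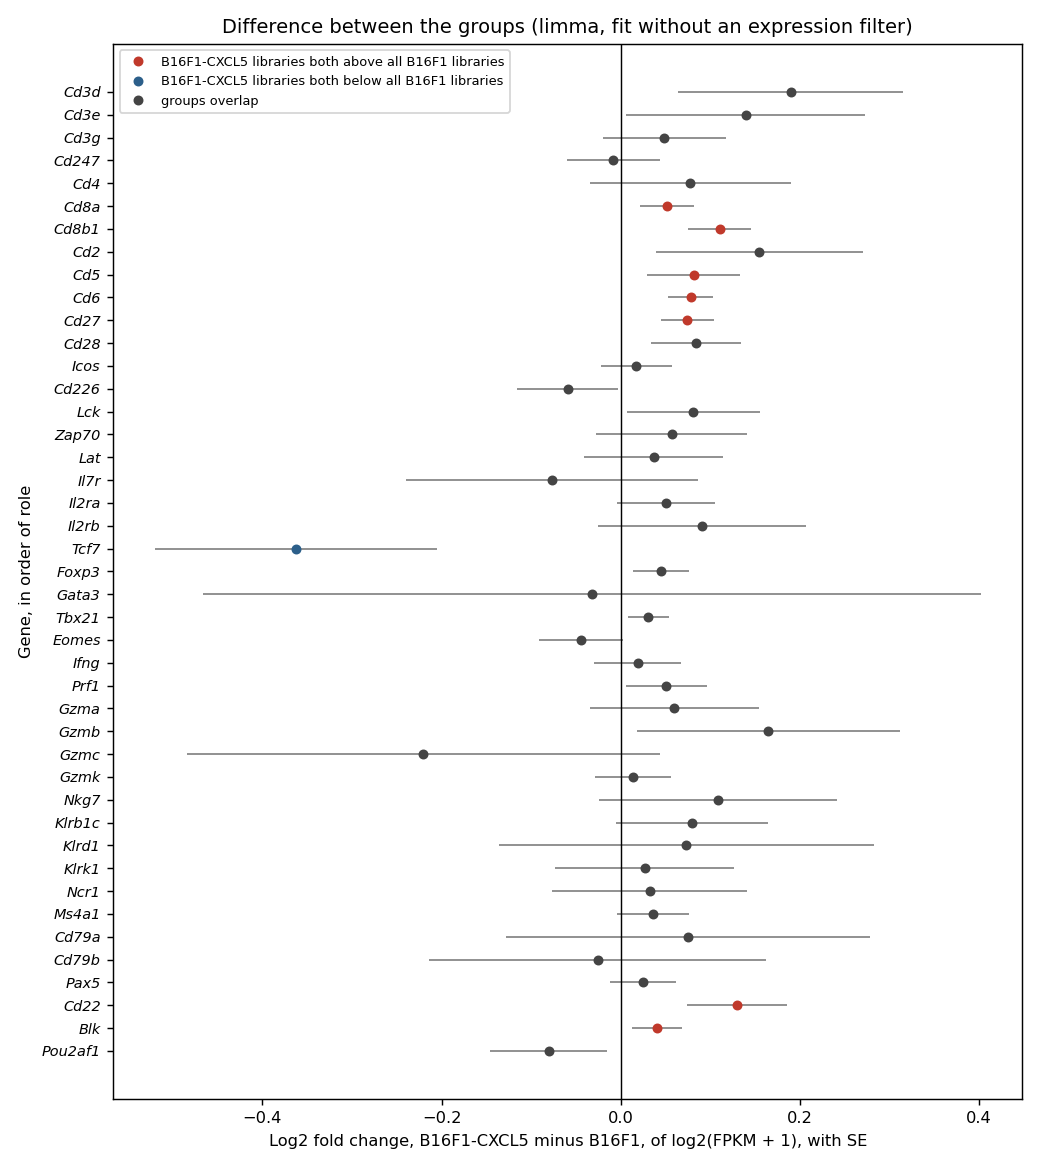
Log2 fold change of log2(FPKM + 1), B16F1-CXCL5 minus B16F1, with its SE from limma for each of the 43 genes in the order of their roles. Red marks the 7 genes whose B16F1-CXCL5 libraries are both above the B16F1 libraries and blue the 1 gene, Tcf7, with both below, and 0 of the 43 passed the adjusted threshold.

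Within the B16F1-CXCL5 group, library 1 was above library 2 for 36 of the 43 members (83.7%), while over all genes above 0 it was above library 2 for 49.3%. Over the 40 members above 0 in both libraries the median ratio of library 1 to library 2 was 1.68, and the median ratio of B16F1-CXCL5 to B16F1 group means over the members was 1.28. B16F1-CXCL5 library 1 had the highest value of all 5 libraries for 22 members, B16F1-CXCL5 library 2 for 6, and the B16F1 libraries 1, 2 and 3 for 4, 5 and 6. All 9 macrophage and monocyte markers were also higher in B16F1-CXCL5 library 1 than in library 2 and highest there of all 5 libraries, with sums of 539 and 342 FPKM (lowest single value 1.65 FPKM), against 433, 311 and 488 FPKM in B16F1 libraries. All 5 pan-leukocyte and all 4 endothelial markers were highest in B16F1-CXCL5 library 1 as well. Higher there than in library 2 were 2 of 8 neutrophil, 2 of 7 keratinocyte and 0 of 7 melanocyte lineage markers. The part of these differences between the libraries in the lymphocyte values was not tested.

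**Figure D3:**
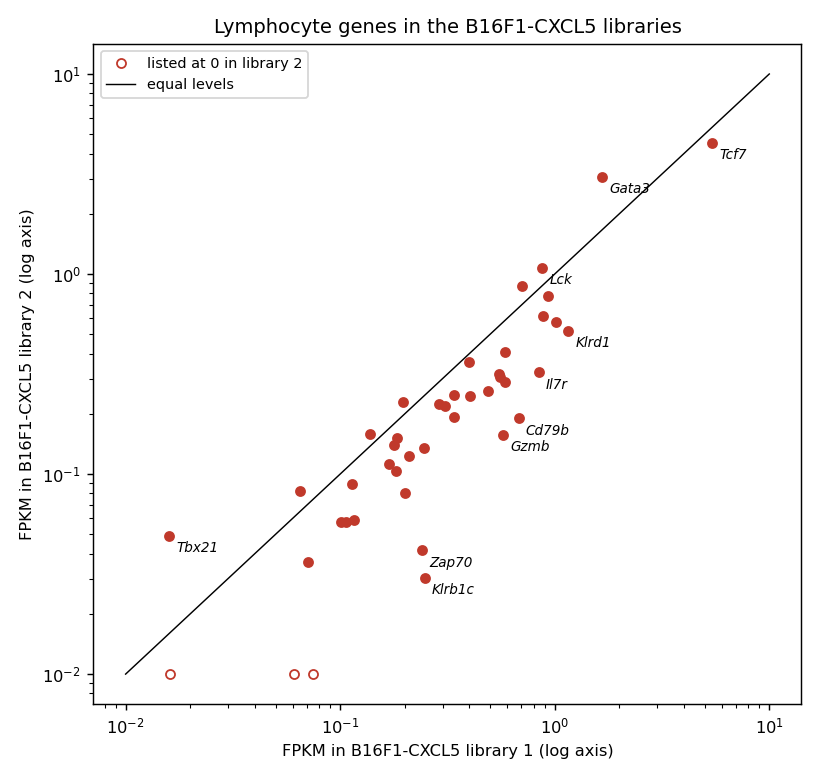
FPKM of the 43 lymphocyte genes in B16F1-CXCL5 library 1 (x, log axis) and library 2 (y, log axis), with the line of equal levels and open symbols for the 3 genes listed at 0 in library 2. Of the 43 points, 36 lie below the line, and Gata3, Lck and Tbx21 are among those above it.

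The CD3 chains carry the signal of the T cell receptor, and their genes were detected in every library at under 1 FPKM. Cd3g, Cd3d and Cd3e, for the CD3 gamma, delta and epsilon chains, lie together on chromosome 9, and Cd3g (44969572 to 44980431, minus strand, GRCm38) and Cd3d (44981786 to 44987339, plus strand) point away from each other with 1355 nt between their starts. The promoters of the 3 genes (RefSeq, GRCm38.p6, 250 bases before to 50 after the start) are shown because these neighbours were read at different levels in the same libraries. Capitals mark GGAA on either strand (GGAA or TTCC), the core of the motif that ETS factors bind. The windows are chr9:44981536-44981835 (plus strand) for Cd3d, chr9:44980382-44980681 (minus strand) for Cd3g and chr9:45009562-45009861 (minus strand) for Cd3e.
Cd3d: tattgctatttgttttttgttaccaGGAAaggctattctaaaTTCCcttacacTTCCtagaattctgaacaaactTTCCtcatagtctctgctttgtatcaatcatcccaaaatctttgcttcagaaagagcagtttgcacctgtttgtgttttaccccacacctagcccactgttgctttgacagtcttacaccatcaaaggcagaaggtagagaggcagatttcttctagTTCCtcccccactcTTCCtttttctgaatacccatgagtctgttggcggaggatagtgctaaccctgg
Cd3g: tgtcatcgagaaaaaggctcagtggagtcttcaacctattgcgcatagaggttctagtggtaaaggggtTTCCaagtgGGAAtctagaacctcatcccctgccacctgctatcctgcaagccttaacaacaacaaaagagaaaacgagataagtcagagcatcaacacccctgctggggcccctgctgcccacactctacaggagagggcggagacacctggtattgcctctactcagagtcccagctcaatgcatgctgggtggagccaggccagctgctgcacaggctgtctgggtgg
Cd3e: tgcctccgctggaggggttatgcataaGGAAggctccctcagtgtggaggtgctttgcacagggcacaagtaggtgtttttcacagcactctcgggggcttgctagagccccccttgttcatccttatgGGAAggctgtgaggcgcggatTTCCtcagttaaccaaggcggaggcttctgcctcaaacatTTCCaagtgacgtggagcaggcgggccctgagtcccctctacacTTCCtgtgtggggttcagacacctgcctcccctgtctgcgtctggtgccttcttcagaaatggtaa
GGAA was found 6 times in the Cd3d window, 2 times in the Cd3g window and 5 times in the Cd3e window, and 95.98% of all 32851 promoter windows hold it, with a median of 3. CACCTG, an E-box sequence searched on both strands, was found 1, 2 and 1 times in the same order (20.2% of all windows hold it), and TGTGGT, a RUNX core, was found 0 times in these 3 windows (16.8% hold it). Matches of different motifs may share bases at their ends, and a match is a description of the sequence only. Of the 43 members, 31 have a window in the RefSeq table.

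Cd3g was the highest of the CD3 genes in each library. It had 0.706 and 0.870 FPKM in B16F1-CXCL5 libraries, against 0.691, 0.718 and 0.773 FPKM in B16F1 libraries. Cd3d had 0.488 and 0.260 FPKM in B16F1-CXCL5 libraries, against 0.0679, 0.201 and 0.351 FPKM in B16F1 libraries, and Cd3d was named after its values were seen. The Cd3d values overlap between the groups, and the lowest of them, in B16F1 library 1, rests on an estimated 3 fragments.

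Cd3e had 0.554 and 0.305 FPKM in B16F1-CXCL5 libraries, against 0.255, 0.161 and 0.483 FPKM in B16F1 libraries. B16F1 library 3 lies between the B16F1-CXCL5 libraries, so the groups overlap. Cd247, the zeta chain, ranged from 0.218 to 0.321 FPKM over all 5 libraries, and 3007 nt of its exons overlap Pou2f1 on the other strand. The kit marked strand, but whether the authors counted by strand was not given in the sources used here, so its value is uncertain. The 4 CD3 genes summed to 2.06 and 1.65 FPKM in B16F1-CXCL5 libraries, against 1.24, 1.40 and 1.87 FPKM in B16F1 libraries, and the sums overlap.

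The coreceptors CD4 and CD8 mark helper and killer T cells. Cd4 had 0.586 and 0.288 FPKM in B16F1-CXCL5 libraries, against 0.277, 0.328 and 0.464 FPKM in B16F1 libraries, and the groups overlap. Cd8a and Cd8b1, neighbours on chromosome 6 (Cd8b1 71322788 to 71337494, Cd8a 71373427 to 71379173, both on the plus strand), were the lowest of these 7 genes in mean and did not overlap between groups.

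Cd8b1, for the CD8 beta chain found mainly on T cells, had 0.184 and 0.152 FPKM in B16F1-CXCL5 libraries, against 0.0637, 0.0627 and 0.1198 FPKM in B16F1 libraries. The ratio of group means was 2.04, with a log2 fold change of 0.11 ± 0.03 (SE) and an adjusted p of 0.518 (limma, no filter). These values rest on an estimated 6 and 6 fragments, against 2, 2 and 4. Cd8a, for the alpha chain that some dendritic cells also carry, had 0.168 and 0.112 FPKM in B16F1-CXCL5 libraries, against 0.0945, 0.0943 and 0.110 FPKM in B16F1 libraries. Its lowest B16F1-CXCL5 value is only just above the highest B16F1 value, and its adjusted p was 0.766 (limma, no filter).

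Receptors for adhesion and costimulation help a T cell bind its partner cell and decide whether to respond. Cd2 had 0.400 and 0.361 FPKM in B16F1-CXCL5 libraries, against 0.374, 0.297 and 0.0706 FPKM in B16F1 libraries, so only B16F1 library 3 stood apart. Cd6, a receptor that binds ALCAM, had 0.113 and 0.0895 FPKM in B16F1-CXCL5 libraries, against 0.0269, 0.0405 and 0.0625 FPKM in B16F1 libraries. Its groups do not overlap, with a ratio of means of 2.34, a log2 fold change of 0.08 ± 0.03 (SE) and an adjusted p of 0.526 (limma, no filter). Cd5, a brake on antigen receptor signals, had 0.137 and 0.159 FPKM in B16F1-CXCL5 libraries, against 0.101, 0.02004 and 0.136 FPKM in B16F1 libraries. Its groups are apart by less than 0.001 FPKM.

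Cd27, a costimulatory receptor of the TNF receptor family, had 0.195 and 0.228 FPKM in B16F1-CXCL5 libraries, against 0.168, 0.156 and 0.128 FPKM in B16F1 libraries. The groups do not overlap, and the adjusted p was 0.619 (limma, no filter). Cd28, Icos and Cd226, which also give activating signals, ranged from 0.0459 FPKM for Icos in B16F1 library 3 to 0.2196 FPKM for Cd226 in B16F1 library 2, with overlapping groups. The 7 genes of this role summed to 1.36 and 1.10 FPKM in B16F1-CXCL5 libraries, against 0.980, 0.930 and 0.741 FPKM in B16F1 libraries.

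Of the proximal signalling genes, Lck, the kinase that starts T cell receptor signalling, was the highest and close to constant. It had 0.875 and 1.07 FPKM in B16F1-CXCL5 libraries, against 0.876, 0.850 and 0.863 FPKM in B16F1 libraries. The groups overlap, with B16F1-CXCL5 library 2 the highest. Lat had 0.549 and 0.318 FPKM in B16F1-CXCL5 libraries, against 0.396, 0.402 and 0.382 FPKM in B16F1 libraries, which lie between the B16F1-CXCL5 values. Zap70 had 0.242 and 0.0415 FPKM in B16F1-CXCL5 libraries, the highest and the lowest of the 5, against 0.141, 0.0611 and 0.0802 FPKM in B16F1 libraries. Zap70 was named after its values were seen.

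Among the cytokine receptors, which receive the survival and growth signals of interleukins 7, 2 and 15, the groups overlapped for all 3 genes. Il7r had 0.840 and 0.323 FPKM in B16F1-CXCL5 libraries, against 0.5655, 0.574 and 0.809 FPKM in B16F1 libraries. Il2rb had 0.589 and 0.406 FPKM in B16F1-CXCL5 libraries, against 0.284, 0.348 and 0.598 FPKM in B16F1 libraries. Il2ra, high on regulatory and activated T cells, ranged from 0.103 to 0.246 FPKM. Each of the 3 was higher in B16F1-CXCL5 library 1 than in library 2.

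The transcription factors held the highest values of the 43 genes. Tcf7, for TCF1, which acts in T cell development and in WNT signalling elsewhere, had 5.43 and 4.54 FPKM in B16F1-CXCL5 libraries, against 5.60, 7.05 and 7.505 FPKM in B16F1 libraries. Both B16F1-CXCL5 values are below the 3 B16F1 values, and Tcf7 is the only member with that order. Tcf7 averaged 4.98 ± 0.630 FPKM in B16F1-CXCL5 tumors and 6.72 ± 0.997 FPKM in B16F1 tumors (SD, n = 2 and 3), with a log2 fold change of -0.36 ± 0.14 (SE) and an unadjusted limma p of 0.0482. It did not pass the adjusted threshold (limma adjusted p = 0.552).

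Gata3, a factor of type 2 T cells that skin epidermis and hair follicles also express, had 1.67 and 3.05 FPKM in B16F1-CXCL5 libraries, against 1.72, 1.47 and 4.65 FPKM in B16F1 libraries (limma adjusted p = 0.992). The order of the libraries was close to that of the 7 keratinocyte markers, which summed to 401 and 502 FPKM in B16F1-CXCL5 libraries, against 352, 343 and 933 FPKM in B16F1 libraries. In each group the library with the highest keratinocyte sum had the most Gata3. Of the 7 markers, 2 (Krt1 and Krt14) had the opposite order in the B16F1-CXCL5 group, with library 1 above library 2. All 7 keratinocyte markers were highest in B16F1 library 3 and the lowest of their values was 2.19 FPKM. Their part in the Gata3 level was not tested. Without B16F1 library 3 the log2 fold change of Gata3 was 0.34 in place of -0.03 (limma adjusted p = 0.669).

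Foxp3, the factor that defines regulatory T cells, had 0.116 and 0.0589 FPKM in B16F1-CXCL5 libraries, against 0.0608, 0.0619 and 0.0388 FPKM in B16F1 libraries. The groups overlap, and the estimated fragments were 12 and 6, against 6, 6 and 4. Its exons share 853 nt with Flicr on the same strand and 590 nt with Ccdc22 on the other strand, which adds uncertainty. Eomes ranged from 0.225 to 0.346 FPKM. Tbx21, for T-bet, a factor of type 1 T cells and NK cells, reached at most an estimated 3 fragments in a library and was listed at 0 in B16F1 library 2.

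Effector genes of killing were low in both groups. Gzmc, a granzyme of activated killer cells, had the highest mean over the 5 libraries, with 1.02 and 0.577 FPKM in B16F1-CXCL5 libraries, against 1.66, 0.542 and 1.18 FPKM in B16F1 libraries. The groups overlap, and the log2 fold change was -0.22 ± 0.27 (SE, limma adjusted p = 0.876). Gzmc shares 3.79% of its 50-nt windows with Gzme of the same cluster on chromosome 14, so a part of its fragments could be assigned to either gene. Gzmb, the main granzyme of CD8 T cells and NK cells, had 0.574 and 0.157 FPKM in B16F1-CXCL5 libraries, against 0.275, 0.111 and 0.232 FPKM in B16F1 libraries. B16F1-CXCL5 library 1 is the highest for Gzmb and library 2 lies among the B16F1 values.

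Nkg7, a granule membrane protein of killer cells, had 0.930 and 0.780 FPKM in B16F1-CXCL5 libraries, against 0.681, 0.518 and 0.991 FPKM in B16F1 libraries, with overlapping groups. Prf1 (perforin) and Gzma ranged from 0.0814 to 0.339 FPKM over the 5 libraries. Ifng and Gzmk were the least detected, and they were named after their values were seen. Ifng, for interferon gamma, was above 0 only in B16F1-CXCL5 library 1 and B16F1 library 3, with an estimated 2 fragments in each. Gzmk was above 0 only in B16F1-CXCL5 library 1 and B16F1 library 2, with about 1 fragment in each. All 7 genes of this role were higher in B16F1-CXCL5 library 1 than in library 2.

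NK cell receptors showed the same order within the B16F1-CXCL5 group, with 4 of 4 higher in library 1. Klrd1, for CD94, had 1.16 and 0.522 FPKM in B16F1-CXCL5 libraries, against 0.443, 0.791 and 0.978 FPKM in B16F1 libraries. Klrk1, for the activating receptor NKG2D, had 0.403 and 0.245 FPKM in B16F1-CXCL5 libraries, against 0.198, 0.264 and 0.442 FPKM in B16F1 libraries. Ncr1, for NKp46, a marker of NK cells and some innate lymphoid cells, had 0.181 and 0.1035 FPKM in B16F1-CXCL5 libraries, against 0.0562, 0.0270 and 0.284 FPKM in B16F1 libraries. The groups overlap for all 4 genes, and Ncr1 had both its highest and its lowest value in the B16F1 group. Klrb1c, for NK1.1, had an estimated 16 and 2 fragments in the B16F1-CXCL5 libraries, against 3, 5 and 6 in the B16F1 libraries, was named after its values were seen, and shares 18.1% of its 50-nt windows with other genes.

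Of the 7 B cell genes, 6 were higher in B16F1-CXCL5 library 1 than in library 2, and B16F1-CXCL5 library 1 and B16F1 library 1 each held the highest value for 3. Cd79a, for a signalling chain of the B cell receptor, had 0.879 and 0.619 FPKM in B16F1-CXCL5 libraries, against 1.12, 0.539 and 0.392 FPKM in B16F1 libraries. Cd79b, for its partner chain, had 0.678 and 0.190 FPKM in B16F1-CXCL5 libraries, against 0.548, 0.233 and 0.560 FPKM in B16F1 libraries. B16F1 library 1 was highest of the 5 for Cd79a, Pax5 and Pou2af1, and for Pax5, the factor that fixes B cell identity, B16F1-CXCL5 library 1 was level with it (0.0710 FPKM in B16F1-CXCL5 library 1 and 0.0720 FPKM in B16F1 library 1). Cd79a shares 8.31% of its 50-nt windows with another gene.

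Pou2af1, a coactivator of B cells and plasma cells, had 0.0161 and 0 FPKM in B16F1-CXCL5 libraries, against 0.155, 0 and 0.0482 FPKM in B16F1 libraries. The value in B16F1 library 1 rests on an estimated 10 fragments, while the other 4 libraries rest on at most 3. Pou2af1 was named after its values were seen, and 1 library carries its order, so it is no comparison between the groups.

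Cd22 and Blk, an inhibitory receptor and a kinase of B cells, did not overlap between groups. Cd22 had 0.338 and 0.249 FPKM in B16F1-CXCL5 libraries, against 0.244, 0.132 and 0.172 FPKM in B16F1 libraries (limma adjusted p = 0.6496, no filter). Blk had 0.0650 and 0.0823 FPKM in B16F1-CXCL5 libraries, against 0.0510, 0.0166 and 0.0643 FPKM in B16F1 libraries (limma adjusted p = 0.804, no filter). Blk rests on an estimated 4 and 5 fragments, against 3, 1 and 4, so the order of its libraries turns on very few fragments. Ms4a1, for the surface protein CD20, ranged from 0.0206 to 0.101 FPKM with overlapping groups.

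The makeup of the lymphocyte signal was compared through 7 ratios of FPKM within each library, which do not change when a library is rescaled. With 2 libraries against 3, an exact permutation test (two-sided) cannot go below 0.1, and the 7 p-values lay between 0.2 and 0.8, with adjusted values of 0.7 to 0.8. Cd8a over Cd4 was 0.288 and 0.389 in the B16F1-CXCL5 libraries, against 0.341, 0.287 and 0.237 in the B16F1 libraries (exact permutation p = 0.4). Cd8b1 over Cd8a was 1.09 and 1.35 in the B16F1-CXCL5 libraries, against 0.674, 0.664 and 1.09 in the B16F1 libraries (exact permutation p = 0.2), and the lower B16F1-CXCL5 value is almost equal to the highest B16F1 value. Foxp3 over Cd4 was 0.199 and 0.205 in the B16F1-CXCL5 libraries, against 0.2199, 0.189 and 0.0837 in the B16F1 libraries. The ratios of Gzmb, Cd79a and Ncr1 to Cd3e overlapped between the groups as well, each with an exact permutation p of 0.8.

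Ratios of CD3 genes to pan-leukocyte genes depended on the gene on each side. Ptprc, for CD45 of all leukocytes, had 7.62 and 6.57 FPKM in B16F1-CXCL5 libraries, against 2.79, 2.06 and 3.17 FPKM in B16F1 libraries, with a log2 fold change of 1.15 ± 0.16 (SE, limma adjusted p = 0.124). Blocking on the replicate number gave Ptprc an adjusted p of 0.0441 (limma). That fit takes B16F1 library 3 out of the estimate and pairs the others by numbers that did not pair the libraries. Without that library and without the block, the adjusted p was 0.0819 (limma). Cd3e over Ptprc was 0.0728 and 0.0464 in the B16F1-CXCL5 libraries, against 0.0915, 0.0783 and 0.1526 in the B16F1 libraries. Both B16F1-CXCL5 ratios are below the B16F1 ratios, with an exact permutation p of 0.2 (two-sided). All other pairings of the 4 CD3 genes with 5 pan-leukocyte genes (Ptprc, Coro1a, Laptm5, Cd53 and Cd52) were added after the values were seen and are given with no test. Cd3e over Laptm5 was 0.0149 and 0.0112 in the B16F1-CXCL5 libraries, against 0.01035, 0.00782 and 0.01497 in the B16F1 libraries, and Cd3e overlapped between the groups with 4 of the 5. Cd3d overlapped with 5 of the 5, while both B16F1-CXCL5 ratios were below the B16F1 ratios for 3 of 5 with Cd3g and for 4 of 5 with Cd247. Of the 5, Ptprc had the largest ratio of group means, 2.66, and Laptm5 the smallest, 1.24. All 8 neutrophil markers were also higher in both B16F1-CXCL5 libraries, with sums of 752 and 817 FPKM, against 18.3, 20.8 and 48.2 FPKM in B16F1 libraries. Their lowest single value was 0.292 FPKM. Within the B16F1-CXCL5 group, Ptprc was higher in library 1 and the neutrophil sum in library 2. The 6 mast cell markers summed to 37.9 and 40.5 FPKM, against 14.5, 18.3 and 27.4 FPKM, and 3 of them were higher without overlap. The part of neutrophil or mast cell markers in the ratio was not tested.

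**Figure D4:**
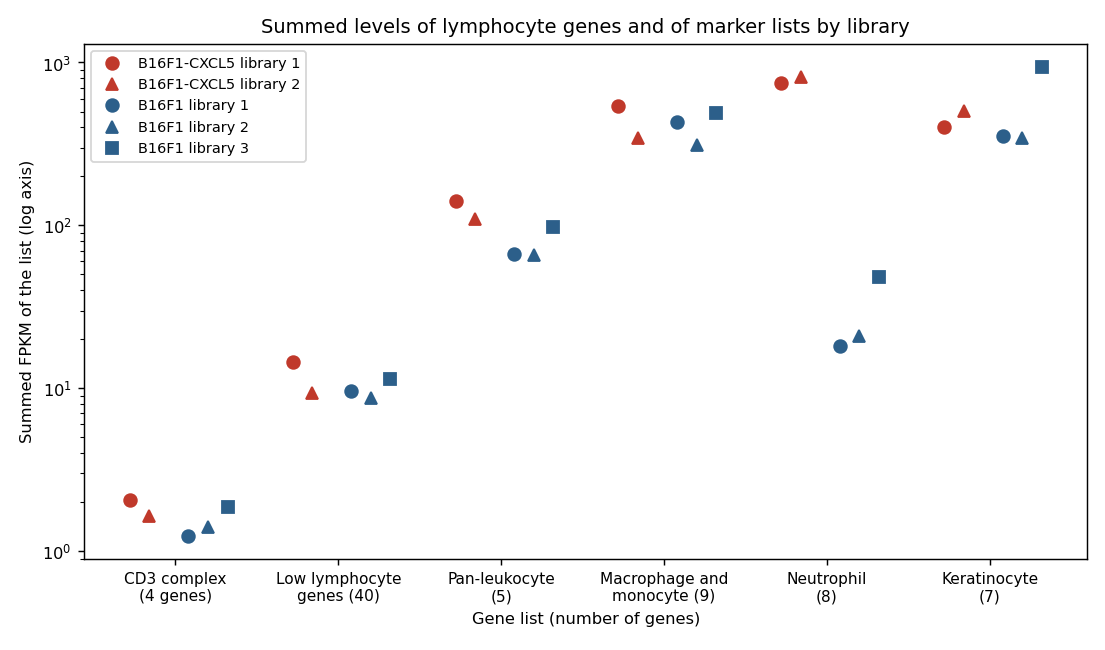
Summed FPKM (log axis) of the CD3 genes, the 40 lymphocyte genes under the expression filter and 4 marker lists in the 2 B16F1-CXCL5 libraries (red) and the 3 B16F1 libraries (blue). The neutrophil sums of 752 and 817 FPKM in B16F1-CXCL5 libraries stand far above those of the B16F1 libraries, at most 48.2 FPKM, while the sums of the 40 lymphocyte genes overlap, with 14.4 and 9.33 FPKM in B16F1-CXCL5 libraries and 8.65 to 11.4 FPKM in B16F1 libraries.

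Other lymphocyte genes, taken from 5 further lists, gave 1 call. Of 30 genes of these lists over the filter, 0 passed over all genes (limma), and without the filter 1 of 100 passed. Unadjusted limma p-values under 0.05 without the filter, found for 8.36% of all genes, were found for 5 of 24 other NK cell and cytotoxic genes tested (20.8%) and for 2 of 30 other T cell genes (6.67%). They were found for 1 of 20 other B cell and plasma cell genes, 2 of 18 chemokine genes and 1 of 10 genes tested of gamma delta T, NKT and innate lymphoid cells. The gene called was Il18rap, a chain of the interleukin 18 receptor, from the list of other NK cell and cytotoxic genes. It had 0.709 and 0.711 FPKM in B16F1-CXCL5 libraries, against 0.145, 0.141 and 0.149 FPKM in B16F1 libraries, a ratio of means of 4.90 (limma adjusted p = 0.0267, no filter), where 0.123% of all genes were called higher. The call was lost without any 1 library (adjusted p from 0.0906 to 0.261), with a pseudocount of 0.1 (adjusted p = 0.128), without the intensity trend (adjusted p = 0.0685) and with the replicate block (adjusted p = 0.665), and the direction was kept. In its list of 25, 8 genes were higher in both B16F1-CXCL5 libraries than in all B16F1 libraries (10.8% of all genes had that order) and 0 were lower, while 0 of the 4 NK receptor members had that order. Besides Il18rap the 8 were Cd244, Ctsw, Klra1, Klra2, Klra3, Klra8 and Tyrobp, named after their values were seen. Il18r1, also for the interleukin 18 receptor and in this list, was named after its values were seen. It had 0.370 and 0.331 FPKM in B16F1-CXCL5 libraries, against 0.159, 0.267 and 0.425 FPKM in B16F1 libraries. Its groups overlap (limma adjusted p = 0.902, no filter). Tyrobp also serves myeloid receptors. Klra1, Klra3 and Klra8 were near the floor, with no value above 0.185 FPKM. Klra1 had 0.04955 and 0.0236 FPKM in B16F1-CXCL5 libraries, against 0, 0 and 0.0235 FPKM in B16F1 libraries, so its groups are barely apart. Klra2, a receptor of the Ly49 family, had 1.32 and 1.097 FPKM in B16F1-CXCL5 libraries, against 0.492, 0.333 and 0.6045 FPKM in B16F1 libraries. Ctsw, a protease of NK cells and CD8 T cells, had 0.475 and 0.453 FPKM in B16F1-CXCL5 libraries, against 0.201, 0.329 and 0.3175 FPKM in B16F1 libraries. All 8 neutrophil markers were higher in both B16F1-CXCL5 libraries as well, and their part in these values was not tested.

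The genes of highest level in these lists were not restricted to lymphocytes and none passed. Thy1, a surface protein of T cells and of fibroblasts, averaged 21.5 ± 4.04 FPKM in B16F1-CXCL5 tumors and 24.0 ± 9.23 FPKM in B16F1 tumors (SD, n = 2 and 3). Tyrobp, the adaptor DAP12 of NK and myeloid receptors, averaged 118 ± 18.5 FPKM and 58.2 ± 14.95 FPKM in the same groups, without overlap (limma adjusted p = 0.332). Cxcl10, an interferon-induced chemokine that attracts T cells through CXCR3, had 146 and 71.1 FPKM in B16F1-CXCL5 libraries, against 31.6, 50.2 and 58.3 FPKM in B16F1 libraries (limma adjusted p = 0.465). Its groups do not overlap, and B16F1-CXCL5 library 1 was again above library 2. Cxcr3, for that receptor, was named after its values were seen. It had 8.585 and 6.82 FPKM in B16F1-CXCL5 libraries, against 5.88, 7.04 and 6.60 FPKM in B16F1 libraries, with overlap. These values are above those of the CD3 genes, which were under 1 FPKM. Ccl17, a chemokine that attracts T cells through CCR4, had 0.481 and 0.364 FPKM in B16F1-CXCL5 libraries, against 2.04, 1.485 and 1.79 FPKM in B16F1 libraries, and was named after its values were seen. Both its B16F1-CXCL5 values are below the B16F1 values, with a ratio of means of 0.239 (limma adjusted p = 0.1805). Ccl22, for the same receptor and named likewise, had 1.497 and 0.502 FPKM in B16F1-CXCL5 libraries, against 3.22, 1.404 and 3.475 FPKM in B16F1 libraries, with overlap. Of the 18 chemokine genes, 2 were higher and 2 lower without overlap, beside 10.8% higher and 12.3% lower of all genes. Ly6d, a protein of early B cells and of skin epithelium, averaged 37.3 ± 6.92 FPKM in B16F1-CXCL5 tumors and 46.0 ± 28.9 FPKM in B16F1 tumors. The B16F1 values were 26.8, 32.05 and 79.2 FPKM, and without library 3, which also held the highest value of all 7 keratinocyte markers, the B16F1 mean was 29.4 FPKM and below the B16F1-CXCL5 mean. Il17a and Il22, cytokines of type 17 lymphocytes, were listed at 0 in all 5 libraries. Glycam1, a product of lymph node venules, was listed at 0 in all 5 libraries as well. It was the only gene at 0 throughout among 6 markers of lymph node stroma and high endothelium. Those 6 summed to 11.06 and 7.94 FPKM in B16F1-CXCL5 libraries, against 8.727, 11.82 and 5.246 FPKM in B16F1 libraries. Among them, Ccl19 had 8.634 and 2.569 FPKM in B16F1-CXCL5 libraries, against 4.34, 9.032 and 3.906 FPKM in B16F1 libraries, with overlap.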

How the data were processed

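Poly(A) RNA of 5 tumor libraries was sequenced. The authors deposited 1 table of FPKM values. The submitters' processing notes name Bowtie 1.0.0, Cufflinks 2.2.1, FastQC 0.10.1, SAMtools 0.1.1.9 and TopHat2 2.0.10, with the builds GRCm38 and mm10. Libraries were made with a stranded kit, per the labels' protocols. Not given in the sources used here were the gene annotation, whether counting used strand, and how libraries were scaled to each other. FPKM values are not counts, so no count model was used. Columns were matched by title, and groups were compared with limma (3.58.1, under R 4.3.3) applied to log2(FPKM + 1), with an intensity trend, after a filter of at least 1 FPKM in at least 2 libraries (12533 genes) and also without it (18751 genes), with Benjamini-Hochberg adjustment over all genes and a threshold of 0.05. The fit was tested on simulated data built only from genes past the filter, with changes planted in those of higher level. That test does not cover the members below the filter. Depth was estimated from 3059 genes with 1 transcript of 800 to 6000 nt, and coordinates come from GENCODE M21.

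The members and lists were chosen with earlier results of these data known. Values in every library are given for members past the threshold, members without overlap and a ratio of means of at least 1.5, the 2 highest members of each role and members of a ratio. Of the symbols in the other lists, 3 were found under an older name. Some genes of the other lists are not reported here. The alternatives were pseudocounts of 0.1 and 0.5, other filters, no trend, library weights, other scalings, a replicate block and leaving out each library.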

Additional observations from a re-analysis of the deposited data

How the results depend on the processing

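The number of lymphocyte genes past the threshold was 0 in all 14 alternatives. Only the fit without the filter tested all 43 members, while the others tested 3, or 1 with a mean of at least 3 FPKM. The count in those others therefore says nothing about the members below the filter. The median log2 fold change of the members, 0.05, was 0.21 with a pseudocount of 0.1, -0.22 over the 3 members past the filter, -0.36 for the 1 member with a mean of at least 3 FPKM, and between -0.0156 and 0.0876 when a library was left out. The count of members without overlap ranged from 8 to 25 (higher) and from 1 to 9 (lower) when a library was left out, beside 7 and 1, with fewer libraries making overlap rarer. In the other lymphocyte lists 0 genes passed with the filter and 1 without it.

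Cxcl5 did not pass with a pseudocount of 0.1 (log2 fold change 5.40), and its log2 fold change lay between 4.56 and 5.16 when a library was left out. Gata3 turned positive with library weights (0.0911), at the same sum per library (0.00285), with the replicate block (0.34), and ranged from -0.33 to 0.34 when a library was left out. Replicate number 3 occurs only in the B16F1 group, so the block takes B16F1 library 3 out of the estimate. The block and leaving out that library therefore gave Gata3 the same 0.34 and are not separate alternatives for the fold change. The cause of the other changes was not tested. The count of all genes called, 17, was 8 with a pseudocount of 0.1, 39 without the trend, 31 with library weights, 7 with a mean of at least 3 FPKM, 46 with the replicate block and 2 to 34 when a library was left out.

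Replicate numbers did not pair the libraries: deviations from the group means correlated at -0.0283 for number 1 and -0.019 for number 2. With the block 0 of the 3 members past the filter were called. The median over all 43 members was 0.07, the same median as without B16F1 library 3. Of the genes followed one by one, the block changed the calls of Ptprc and Il18rap only, as given in the report. Most members rest on fewer than 30 estimated fragments per library, and depth limits their precision.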
